A study of Mus musculus with 9 samples.

Results

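The genes described are 10 regulators of cell cycle arrest and of the p53 response, chosen by symbol for their roles: Cdkn1a, Cdkn1b, Cdkn2c, Cdkn2d, Trp53, Mdm2, Ccng1, Ccng2, Rb1 and Gadd45a. Of these, 7 were among the 7197 genes of the deposited table, and all 7 entered the test of 6673 genes, each with 10 or more normalized counts on average. Cdkn1a, Cdkn2c and Trp53 were not analysed here. Neutrophils (CD45+, CD11b+, Ly6G+) were sorted from the bone marrow of mice of 2 genotypes, and their RNA was read by 3′-end sequencing. The 5 Rragc+/+ libraries came from mice with both wild-type alleles, and the 4 RragcS74N/+ libraries from mice with 1 allele edited in the germline to encode an activated RagC, a subunit of the Rag GTPases that signal nutrient sufficiency to the kinase complex mTORC1. All animals were 2 months old, on a C57BL/6 background per the study's methods, and untreated as far as the labels say. The labels do not say whether each library came from a separate animal, while the paper describes neutrophils of 5 mice per genotype. The p-values measure the spread between these libraries, and replicate numbers follow the order of deposit. The study concerns ageing and cellular senescence in mice with activated RagC, and the comparison here asks whether arrest genes differed between genotypes in neutrophils.

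Cyclin-dependent kinase (CDK) inhibitors of the Cip/Kip family, such as p27 (Cdkn1b), and of the INK4 family, such as p19 (Cdkn2d), hold the kinases that phosphorylate the retinoblastoma protein (Rb1), which in its unphosphorylated form restrains the E2F factors of S phase. The transcription factor p53 induces p21 (Cdkn1a), Gadd45a, Ccng1 and its own inhibitor Mdm2, while FoxO factors, which growth signals through the kinase AKT keep out of the nucleus, are known to induce Cdkn1b, Gadd45a and Ccng2. Neutrophil precursors leave the cell cycle as they mature, and mature neutrophils do not divide.

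The start regions of these genes are shown first, because p53 names part of the group and FoxO factors are known to induce several of its genes. RefSeq windows (mouse assembly GRCm38.p6), from 250 bases before to 50 after the annotated start, were matched by symbol for 9 of the 10 genes, as 11 windows. Both strands were searched for the p53 decamer, which reads as its own reverse complement, and for the FoxO core GTAAACA. Capitals mark the matches in the windows below, which are those of the measured genes in which the p53 circuit is best known and of Ccng2, the gene with the widest spread. They lie at chr10:117710709-117711008 (minus strand) for Mdm2, chr11:40755237-40755536 (minus strand) for Ccng1, chr6:67037358-67037657 (minus strand) for Gadd45a and chr5:93267323-93267622 (plus strand) for Ccng2.
Mdm2: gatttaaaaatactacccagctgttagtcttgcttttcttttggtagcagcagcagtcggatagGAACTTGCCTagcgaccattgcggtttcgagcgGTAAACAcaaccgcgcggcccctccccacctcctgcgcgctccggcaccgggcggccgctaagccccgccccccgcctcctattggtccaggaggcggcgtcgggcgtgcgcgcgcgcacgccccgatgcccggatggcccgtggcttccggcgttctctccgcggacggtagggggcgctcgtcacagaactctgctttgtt
Ccng1: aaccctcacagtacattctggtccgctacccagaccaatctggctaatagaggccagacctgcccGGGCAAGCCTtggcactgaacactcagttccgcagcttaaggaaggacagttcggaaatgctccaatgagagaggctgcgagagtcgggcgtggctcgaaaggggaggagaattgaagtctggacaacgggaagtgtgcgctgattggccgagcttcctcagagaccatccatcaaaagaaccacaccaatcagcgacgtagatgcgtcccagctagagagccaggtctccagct
Gadd45a: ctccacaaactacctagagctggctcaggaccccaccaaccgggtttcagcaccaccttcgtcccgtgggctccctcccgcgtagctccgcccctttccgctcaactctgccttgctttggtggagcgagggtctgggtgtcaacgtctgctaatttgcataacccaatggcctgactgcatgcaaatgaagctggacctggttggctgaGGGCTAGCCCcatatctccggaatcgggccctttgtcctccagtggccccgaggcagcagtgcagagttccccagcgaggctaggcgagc
Ccng2: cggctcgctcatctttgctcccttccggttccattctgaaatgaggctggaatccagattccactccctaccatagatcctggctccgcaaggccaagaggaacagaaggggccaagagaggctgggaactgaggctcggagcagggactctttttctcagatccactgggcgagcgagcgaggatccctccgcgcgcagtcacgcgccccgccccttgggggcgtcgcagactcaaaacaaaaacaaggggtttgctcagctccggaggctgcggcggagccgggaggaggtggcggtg

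The decamer lay at bases 65 to 74 of the Mdm2 window, 66 to 75 of the Ccng1 window and 211 to 220 of the Gadd45a window, counted from the 5′ end. The FoxO core lay at bases 98 to 104 of the Mdm2 window. The Ccng2 window, of 62.0% GC and with 21 CpG dinucleotides, held neither motif. Over all 9 genes with a window, 6 held the decamer (also Cdkn2d, Trp53 and Cdkn1a). That is 6 of 11 windows, against 8.36% of all 32851 windows. Part of the group was chosen for its link to p53, so this share is not independent of the choice. A pair of decamers with at most 13 bases between them was found in 1 of 11 windows, that of Cdkn1a, and in 0.0731% of all windows. The FoxO core was found in 1 of 11 windows, that of Mdm2, and in 3.65% of all windows. These are matches of letters in a short window, and sites elsewhere in the genes were not searched.

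Values are normalized counts, that is, gene reads divided by a size factor of the library, and the tests used log2(value + 1). Total reads over the listed genes ran from 1214295 to 1973957 per library. Rragc+/+ replicate 2 stood apart, with an average Spearman correlation to the rest of 0.891, where the next lowest library had 0.929. Differences of the measured genes between genotypes are therefore also given without it. The transcripts of 12 of 12 sorting and neutrophil markers were present, with a summed level of 125871 to 182947 normalized counts in Rragc+/+ and 119101 to 198702 in RragcS74N/+ (two-sided exact permutation test, p = 0.690). Rragc itself had 71.0 ± 10.3 normalized counts (SD, n = 5) in wild-type and 65.8 ± 9.52 (SD, n = 4) in mutant libraries, and the edit changes the coding sequence, so its level does not show the genotype.

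The CDK inhibitors were present in all 9 libraries at levels that overlapped between genotypes. Cdkn1b, which encodes the Cip/Kip inhibitor p27, measured 260, 188, 224, 199 and 222 normalized counts in Rragc+/+ replicates 1 to 5 and 216, 277, 252 and 218 in RragcS74N/+ replicates 1 to 4. Of the mutant libraries, replicates 1 and 4 were just below the wild-type median of 222, replicate 3 was above it, and replicate 2 was above every Rragc+/+ library. The means were 219 ± 27.7 (SD, n = 5) and 241 ± 28.9 (SD, n = 4), a log2 difference (RragcS74N/+ minus Rragc+/+) of 0.14 with a standard error of 0.16 (limma, adjusted p = 0.794). The 95% interval, -0.21 to 0.49, covers folds from 0.866 to 1.40. Cdkn1b had a narrow spread: its residual SD within a genotype, 0.18 on the log2 scale, was at percentile 5.86 of the genes tested.

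Cdkn2d, which encodes the INK4 inhibitor p19, measured 1089, 629.8, 684, 1010 and 767 normalized counts in Rragc+/+ and 735, 861, 953 and 973 in RragcS74N/+. The Rragc+/+ libraries formed a high pair (replicates 1 and 4) and a lower trio, and all 4 mutant libraries fell between the lowest and the highest of them. The log2 difference was 0.10 with a standard error of 0.19 (limma, adjusted p = 0.875), and its interval, -0.31 to 0.51, covers folds from 0.806 to 1.42. Without Rragc+/+ replicate 2 the log2 difference was 0.006. Cdkn2d was the member with the most reads, 539 to 1653 per library, and the Poisson intervals of Rragc+/+ replicates 1 and 2, 1037 to 1142 and 578 to 685, were far apart.

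Rb1, the retinoblastoma gene, was read least, with 17 to 78 reads per library. It measured 38.9, 19.9, 40.3, 33.8 and 45.1 normalized counts in Rragc+/+ and 51.7, 42.7, 38.4 and 34.5 in RragcS74N/+. Apart from the low value of Rragc+/+ replicate 2, whose Poisson interval of 95% ran from 11.6 to 31.8, the libraries of both genotypes were interspersed. The log2 difference was 0.26 with a standard error of 0.24 (limma, adjusted p = 0.753), and 0.07 without Rragc+/+ replicate 2. The interval, -0.26 to 0.79, covers folds from 0.833 to 1.73.

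**Figure D1:**
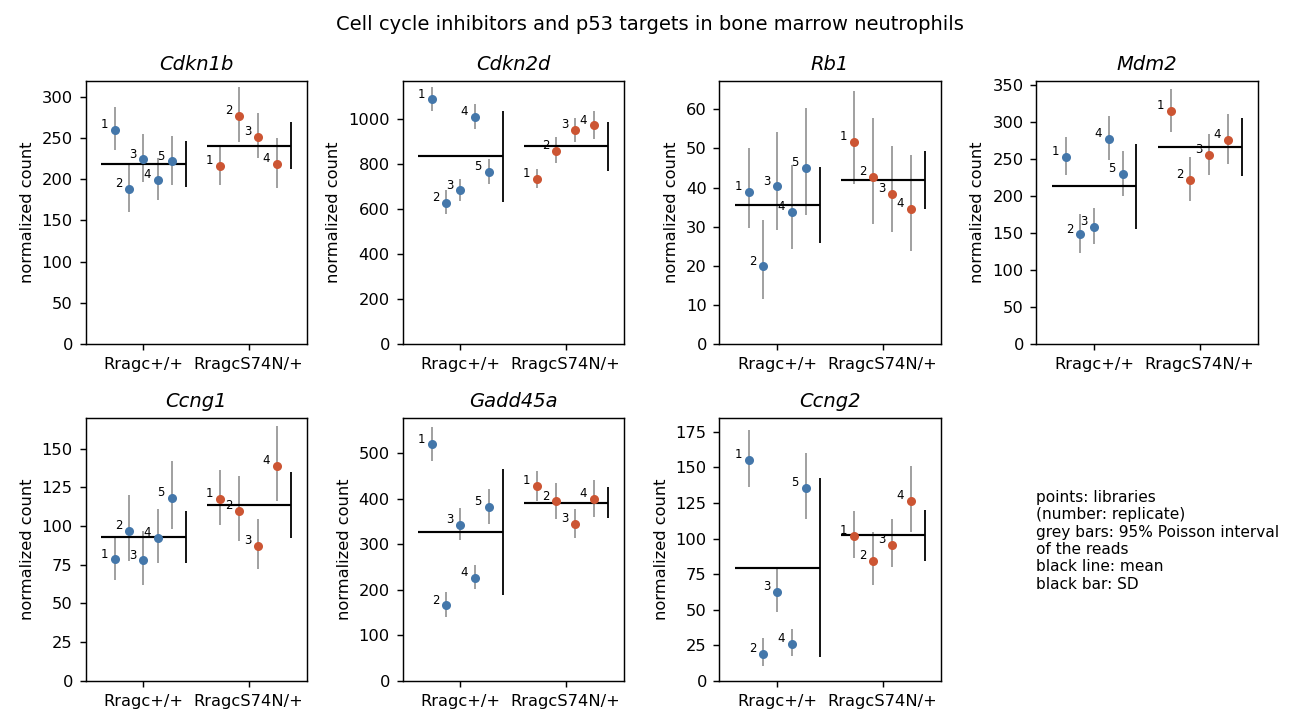
Normalized counts of the 7 measured genes in each library (points, numbered by replicate), with 95% Poisson intervals of the reads in grey and the mean and SD of each genotype in black. The genotypes overlapped for every gene, and the Rragc+/+ libraries of Ccng2 and Gadd45a were spread far wider (18.7 to 155 and 166 to 519.6) than the RragcS74N/+ libraries (84.4 to 126 and 345 to 428).

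Among the p53 targets, Mdm2, the ubiquitin ligase that degrades p53, measured 254, 148, 158, 277 and 229.6 normalized counts in Rragc+/+ and 315, 222, 255 and 276 in RragcS74N/+. Of the 4 mutant libraries, 3 were above the wild-type median, 229.6, and 1 was above the highest wild-type library. The means were 213 ± 57.5 (SD, n = 5) and 267 ± 39.0 (SD, n = 4). The log2 difference was 0.35 (standard error 0.21, interval -0.10 to 0.81) (limma, adjusted p = 0.713), which covers folds from 0.933 to 1.75. In the two-sided exact permutation test over all 126 assignments of the libraries p was 0.190, where the smallest possible is 0.00794.

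Ccng1, which encodes cyclin G1, an atypical cyclin that recruits a phosphatase to Mdm2, measured 78.4, 97.0, 77.8, 92.4 and 118 normalized counts in Rragc+/+ and 117, 110, 87.4 and 139 in RragcS74N/+. Of the 4 mutant libraries, 3 were again above the wild-type median, 92.4, and the remaining one, replicate 3, was within the lower wild-type values. The means were 92.8 ± 16.6 (SD, n = 5) and 113 ± 21.3 (SD, n = 4), with a log2 difference of 0.28 and a standard error of 0.19 (limma, adjusted p = 0.719). The exact permutation p was 0.151 (two-sided). Ccng1 was the one measured gene of the group that was not lowest in Rragc+/+ replicate 2, and its difference without that library was 0.30.

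Gadd45a, a stress-induced protein that binds PCNA and CDK1 and is a target of both p53 and FoxO, measured 519.6, 166, 343, 227 and 382 normalized counts in Rragc+/+ and 428, 394, 345 and 399 in RragcS74N/+. All 4 mutant libraries were above the wild-type median of 343, none was above the highest wild-type library, and Rragc+/+ replicates 2 and 4 were low. The means were 327 ± 138 (SD, n = 5) and 392 ± 34.4 (SD, n = 4), a log2 difference of 0.36 with a standard error of 0.27 (limma, adjusted p = 0.729). The highest wild-type library was 3.13 times the lowest, and the highest mutant library 1.24 times the lowest. The difference ranged from 0.15 without Rragc+/+ replicate 2 to 0.56 without Rragc+/+ replicate 1 (limma, unadjusted p = 0.040, adjusted p = 0.502).

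Ccng2, which encodes cyclin G2, an unconventional cyclin linked to arrest and induced by FoxO factors, had the widest spread of the group. It measured 155, 18.7, 62.8, 25.7 and 135 normalized counts in Rragc+/+ and 102, 84.4, 95.7 and 126 in RragcS74N/+. The mutant libraries sat within a 1.499-fold range inside the wild-type range, which was 8.31-fold. Poisson intervals, which treat each read as an independent molecule, did not overlap between the extremes. Rragc+/+ replicate 2 rested on 16 reads, with an interval of 10.7 to 30.4 normalized counts. Rragc+/+ replicate 1 rested on 236 reads, with an interval of 136 to 177. Rragc+/+ replicate 4, with 32 reads, had an interval of 17.6 to 36.3. The residual SD of Ccng2, 1.03 on the log2 scale, was at percentile 98.7 of the genes tested, and that of Gadd45a, 0.50, at percentile 78.2.

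The log2 difference of Ccng2 depended on the scale more than that of the other members. On log2(value + 1) it was 0.79 with a standard error of 0.51 (limma, adjusted p = 0.714) and an interval of -0.31 to 1.89, and the two-sided exact permutation p was 0.333. The means, 79.6 ± 62.8 (SD, n = 5) and 102 ± 17.8 (SD, n = 4), differed by a ratio of 1.28, or 0.36 on the log2 scale, and edgeR on the recovered reads gave 0.33 (unadjusted p = 0.497). Without Rragc+/+ replicate 2 the difference was 0.39. Without Rragc+/+ replicate 1, the highest library, it was 1.14 (limma, unadjusted p = 0.031, adjusted p = 0.502), and without Rragc+/+ replicate 5 it was 1.09 (limma, unadjusted p = 0.042, adjusted p = 0.354). Whether the spread itself differs between genotypes was not tested. The SD of log2(value + 1) was 1.35 over the Rragc+/+ libraries and 0.24 over the RragcS74N/+ libraries for Ccng2, and 0.65 and 0.13 for Gadd45a.

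**Figure D2:**
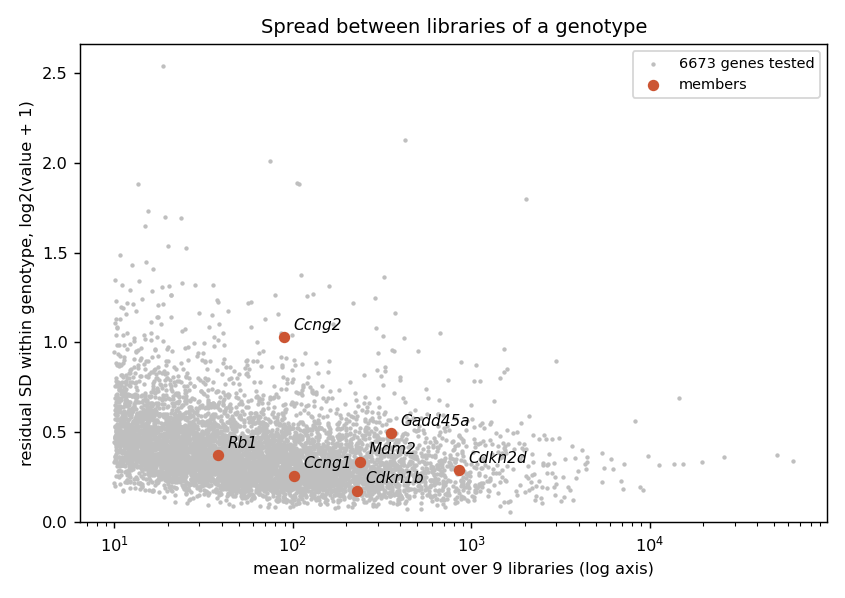
Residual SD within a genotype, on log2(value + 1), against the mean normalized count on a log axis, for the 6673 genes tested (grey) and the 7 measured members (orange). Ccng2, at 1.03, lay above most genes, while Cdkn1b, at 0.18, lay near the lower edge.

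Across the group, 0 of 7 genes passed the adjusted limma threshold of 0.05, where 0.0% of all genes tested did. At an unadjusted p-value under 0.05 the count was also 0 of 7 with limma, edgeR and DESeq2, where 5.81% of all genes passed in limma. The genotypes did not overlap for 0 of 7 members and for 1.69% of all genes. All 7 log2 differences were above 0, with a median of 0.28, while 53.4% of all genes tested were above 0 and their median was 0.02. The 7 values are not independent of each other, because they come from the same libraries. In bulk cells, fewer cells that express a gene and less of its RNA per cell cannot be told apart.

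**Figure D3:**
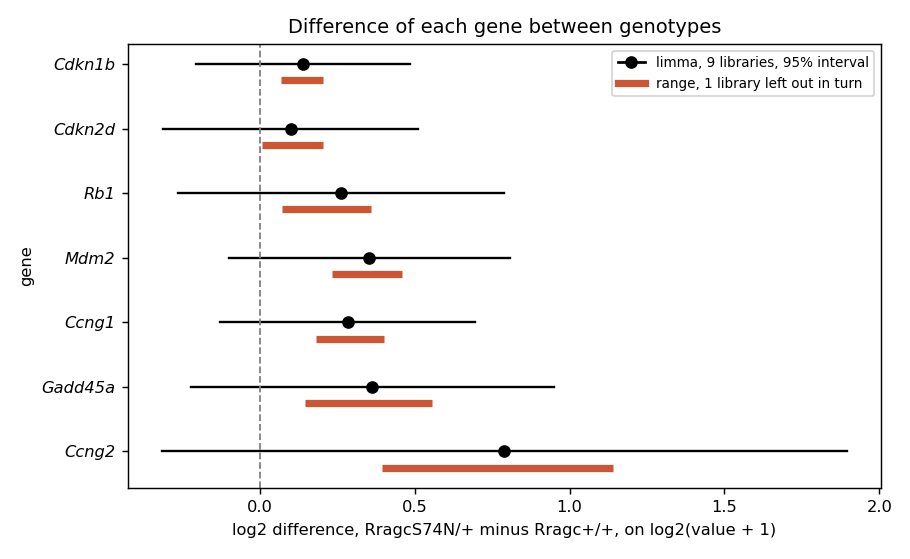
Log2 difference (RragcS74N/+ minus Rragc+/+, on log2(value + 1)) of each measured member, with its 95% interval in limma over 9 libraries (black) and the range when each library was left out in turn (orange). All points were above 0, and every 95% interval included 0.

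This common direction was weaker without 1 library. Rragc+/+ replicate 2 was the lowest of all 9 libraries for 6 of the 7 members and was below the members' own means in 7 of 7, by a median of -0.63 on the log2 scale. The median deviations of the other 4 Rragc+/+ libraries ran from -0.24 to 0.20, and those of the 4 RragcS74N/+ libraries from 0.14 to 0.33. Without Rragc+/+ replicate 2 the differences were 0.09 for Cdkn1b, 0.006 for Cdkn2d, 0.07 for Rb1, 0.23 for Mdm2, 0.30 for Ccng1, 0.15 for Gadd45a and 0.39 for Ccng2, with a median of 0.15. All 7 were thus still above 0, 3 of them by less than 0.1.

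**Figure D4:**
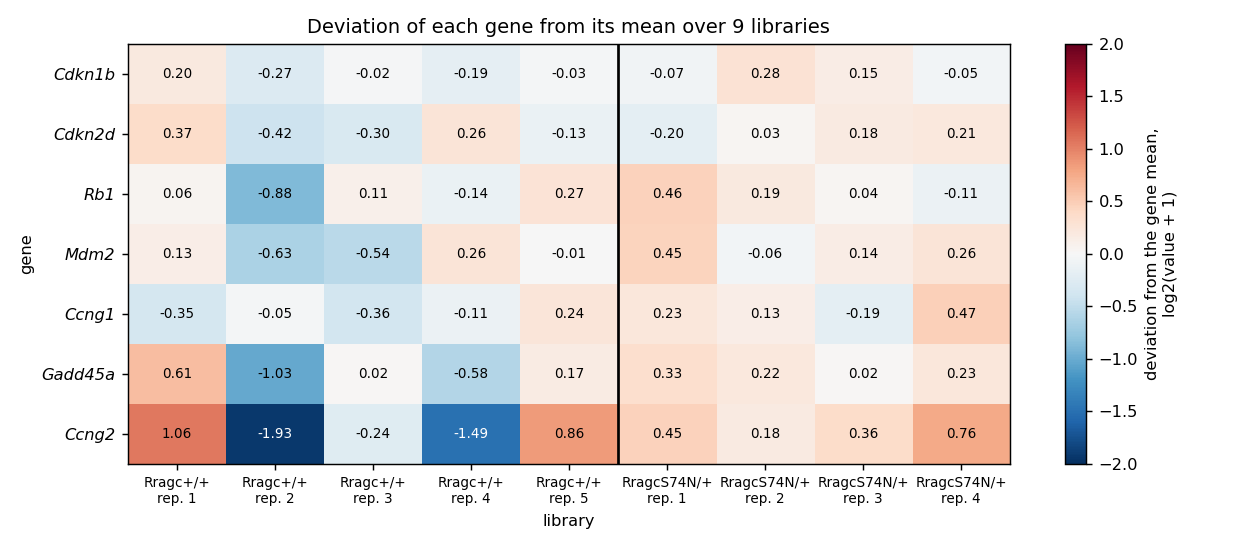
Deviation of each member from its own mean over the 9 libraries, on log2(value + 1), for the 5 Rragc+/+ and 4 RragcS74N/+ libraries (red above the mean, blue below). Rragc+/+ replicate 2 was below the mean for every member, most for Ccng2 (-1.93) and Gadd45a (-1.03).

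Libraries differed in how their values changed with the GC content of the transcript 3′ end, which 3′-end libraries read. The part of this trend in the values of the members was not tested. In Rragc+/+ replicate 2, Ccng2 deviated by -1.93, Cdkn1b by -0.27, Rb1 by -0.88 and Gadd45a by -1.03. There Ccng1 deviated by -0.05, Mdm2 by -0.63 and Cdkn2d by -0.42. The last 500 nucleotides held 29.4% GC in Ccng2, 31.2% in Cdkn1b, 31.8% in Rb1, 34.6% in Gadd45a and 37.0% in Ccng1, below the median of 43.0% over the genes tested, and 40.8% in Mdm2 and 45.0% in Cdkn2d. The trend of log2 value on GC per library, in log2 units per 10% GC, was highest in Rragc+/+ replicate 2 (0.30), was between -0.11 and 0.11 in the other Rragc+/+ libraries, and was between -0.21 and -0.01 in RragcS74N/+. With each library's trend removed, the log2 differences were 0.60 for Ccng2, 0.29 for Mdm2, 0.22 for Gadd45a, 0.17 for Ccng1, 0.12 for Cdkn2d and 0.09 for Rb1, and that of Cdkn1b was -0.03. The members' median was then 0.17.

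The wide wild-type spread of 2 genes was nearly as large after this removal. The Rragc+/+ range of Ccng2 was 2.79 on the log2 scale with the trend removed and 2.99 without removal, and the RragcS74N/+ range was 0.55. For Gadd45a the Rragc+/+ range was 1.48 with and 1.64 without removal, against 0.14 and 0.31 in RragcS74N/+. In both genes Rragc+/+ replicate 2 was still lowest, followed by Rragc+/+ replicate 4.

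Genes whose pattern over the 9 libraries was most like that of a member were sought for the 3 members with the highest means, in the 3475 genes that averaged 50 or more normalized counts. For Gadd45a they were Rsrp1 (Pearson r = 0.983, Spearman rho = 0.917) and Notch2, a receptor of the Notch pathway (0.982 and 0.983). For Mdm2 they were Rps6ka3, the kinase RSK2 (0.9504 and 0.967), and Mapk1ip1l (0.947 and 0.867). For Cdkn2d they were Ngrn (0.956 and 0.900) and Rere, a transcriptional corepressor (0.947 and 0.850). These are the highest of many correlations, over libraries that share the GC trends given above, and are a description without a test. They include Rragc+/+ replicate 2 and were not computed without it.

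Other genes of the same pathways were read as lists. Of 32 other p53 target genes 17 were tested, with 9 log2 differences above 0 and 8 below, and a median of 0.06. In this and every other list below, 0 genes passed the adjusted threshold in limma. At an unadjusted p-value under 0.05, 0 were higher and 3 were lower in RragcS74N/+, where all genes tested gave 134 higher and 254 lower. Bbc3, which encodes the pro-apoptotic BH3-only protein Puma, measured 106 to 129 normalized counts in Rragc+/+ and 67.0 to 103 in RragcS74N/+, with no overlap. The genotypes did not overlap for 1.69% of all genes tested. The log2 difference of Bbc3 was -0.47 with a standard error of 0.17 (limma, unadjusted p = 0.016, adjusted p = 0.713). Pmaip1, which encodes the BH3-only protein Noxa, measured 28.1 ± 10.1 (SD, n = 5) and 14.4 ± 4.15 (SD, n = 4), a difference of -0.87 (limma, adjusted p = 0.713). Sesn2, a stress-induced inhibitor of mTORC1 signaling, measured 140 ± 50.8 (SD, n = 5) and 82.9 ± 14.1 (SD, n = 4), a difference of -0.69 (limma, adjusted p = 0.713). These 3 had the sign opposite to that of Mdm2, Ccng1 and Gadd45a, and none passed the correction. They were picked by p-value from a list with 9 differences above 0 and 8 below. With each library's GC trend removed, the differences were -0.22 for Bbc3, -0.41 for Sesn2 and -1.02 for Pmaip1. Btg2, an antiproliferative target and the one with the highest mean, measured 540 ± 31.2 (SD, n = 5) and 524 ± 71.9 (SD, n = 4), a difference of -0.05. Of 21 p53 regulators and damage kinases 14 were tested, with 0 unadjusted calls in limma and a median of 0.01. Their highest mean belonged to Hipk1, a kinase that phosphorylates p53, at 865 ± 172 (SD, n = 5) and 1013 ± 167 (SD, n = 4), a difference of 0.24 (limma, adjusted p = 0.739).

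The kinases and cyclins that the inhibitors act on were compared next. Of 10 G1 cyclins and CDKs 6 were tested, with 4 differences above 0 and 2 below. Ccnd2, which encodes cyclin D2, measured 59.5 to 130 normalized counts in Rragc+/+ and 38.4 to 54.3 in RragcS74N/+, with no overlap. Over all genes tested, the genotypes did not overlap for 1.69%, and 5.81% had an unadjusted limma p-value under 0.05. The log2 difference of Ccnd2 was -0.72 with a standard error of 0.24 (limma, unadjusted p = 0.0093, adjusted p = 0.713). It was -0.52 without Rragc+/+ replicate 2, where Ccnd2 was highest. Ccnd3, the D-type cyclin with the higher mean in these cells, measured 1306 ± 235 (SD, n = 5) and 1204 ± 100.0 (SD, n = 4), a difference of -0.10. Of 20 genes of the RB family, E2F and the DREAM repressor complex 10 were tested, 5 above and 5 below 0, with 0 unadjusted calls. E2f2 had the highest mean, 629 ± 159 (SD, n = 5) and 477 ± 53.4 (SD, n = 4), a difference of -0.37 (limma, adjusted p = 0.713).

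Genes that act on p27 or share its regulators gave 1 unadjusted call in each list. Over all genes tested, limma gave such a call for 5.81%. Among 5 tested of 6 genes of p27 turnover, Fzr1, an activator of the anaphase-promoting complex, measured 73.2 ± 23.2 (SD, n = 5) and 43.6 ± 12.2 (SD, n = 4), a difference of -0.72, while the scaffold Cul1 differed by 0.00. Among 10 tested of 12 FoxO factors and targets, 4 were above and 6 below 0. The call was Foxo4, with 15.5 ± 7.38 (SD, n = 5) and 6.53 ± 2.63 (SD, n = 4), a difference of -1.07 at a low level. Klf2, a quiescence-associated FoxO target, measured 908 ± 110 (SD, n = 5) and 921 ± 25.8 (SD, n = 4), a difference of 0.03. Of the 4 genes in the GADD45 list 2 were tested, and both were below 0: Gadd45b, with 74.7 ± 26.3 (SD, n = 5) and 44.2 ± 3.13 (SD, n = 4), a difference of -0.68 and the call of that list, and Gadd45g, with -0.30. Gadd45a, at 0.36, thus had the other sign, and whether it differs from them was not tested. With each library's GC trend removed, the differences were 0.22 for Gadd45a, -0.32 for Gadd45b and 0.10 for Gadd45g. The adjusted limma p-value was 0.713 for each of Fzr1, Foxo4, Gadd45b and Gadd45g.

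The 8 genes with an unadjusted call in these lists were all lower in RragcS74N/+. Over all genes tested, 5.81% had such a call in limma, with 134 higher and 254 lower. Of the 8 listed genes, 5 had GC-rich 3′ ends. These were Bbc3 (54.8%), Foxo4 (55.2%), Fzr1 (55.8%), Sesn2 (56.0%) and Gadd45b (58.8%). With each library's GC trend removed, the differences were -0.22 for Bbc3, -0.41 for Sesn2, -0.44 for Fzr1, -0.32 for Gadd45b and -0.80 for Foxo4. The genes with a 3′ end below 44% GC kept values near the first ones, with -0.84 for Ccnd2, -1.02 for Pmaip1 and -0.57 for Plaur, the urokinase receptor gene of the senescence list. In that limma fit 4 of the 8 no longer had an unadjusted p-value under 0.05. Their unadjusted limma p-values were 0.198 for Bbc3, 0.076 for Gadd45b, 0.061 for Foxo4 and 0.059 for Sesn2. The other 4 had 0.0049 for Ccnd2, 0.0066 for Pmaip1, 0.031 for Plaur and 0.042 for Fzr1, and 0 genes passed the adjusted threshold. Without Rragc+/+ replicate 2, and with the GC trend left in, Plaur differed by -0.35 (limma, unadjusted p = 0.068). The differences in that fit were -0.47 for Bbc3, -0.51 for Gadd45b, -0.52 for Ccnd2 and -0.53 for Sesn2. Fzr1 differed by -0.57 and Pmaip1 by -0.72, and Foxo4 was not among the genes tested there.

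Senescence and proliferation genes were read beside the arrest genes. Of 15 senescence markers 4 were tested, 2 above and 2 below 0. Plaur measured 376 ± 152 (SD, n = 5) and 243 ± 28.5 (SD, n = 4), a difference of -0.56 (limma, unadjusted p = 0.035, adjusted p = 0.713), and Il1b, the interleukin-1β gene, 1203 ± 138 (SD, n = 5) and 1254 ± 247 (SD, n = 4), a difference of 0.05. Of 22 S phase and mitosis genes 17 were tested, with 11 above and 6 below 0, a median of 0.11 and 0 unadjusted calls. H2az1, a histone variant gene with the highest mean of this list, measured 2147 ± 753 (SD, n = 5) and 2331 ± 864 (SD, n = 4). The summed level of the 21 listed proliferation genes ran from 3018 to 5536 normalized counts in Rragc+/+ and from 2703 to 5418 in RragcS74N/+ (two-sided exact permutation test, p = 0.738).

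Markers of other cells were read beside the members. Of 9 erythroid markers 7 were listed, with a summed level of 1091 to 5609 normalized counts in Rragc+/+ and 379 to 2158 in RragcS74N/+ (two-sided exact permutation test, p = 0.056), and their part in the members' values was not tested. Eosinophil and basophil markers, 6 of 9, summed to 126 to 452 and 126 to 632 (p = 0.310 in the exact permutation test). Monocyte markers, 2 of 7, summed to 2202 to 3420 and 2211 to 3990 (exact permutation p = 0.937). Of 8 B cell markers 1 was listed, at 87.6 to 140.3 and 83.5 to 123 normalized counts, and 1 T and NK cell marker of 8, at 14.5 to 28.9 and 14.6 to 18.8. Of the 4 primary granule and 5 platelet markers, 0 were among the genes analysed.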

How the data were processed

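Neutrophil RNA was profiled with QuantSeq 3′ libraries whose second-strand primers carry molecular identifiers, and 9 libraries were grouped by the genotype label. Per the study's methods and the submitters' processing notes, the authors checked reads with FastQC (version 0.11.7), aligned them to GRCm39 with TopHat2 (version 2.0.10), Bowtie (version 1.0.0) and SAMtools (version 1.9), and obtained stranded gene counts from HTSeq (version 0.6.1). The deposited values are a signal: gene read counts that the authors divided by 1 size factor per library. Collapsing by molecular identifier and the filter that chose the listed genes are not given in the sources used here, and reads that were not collapsed are not independent molecules, so Poisson intervals cover counting error only. In 3′-end libraries reads do not scale with transcript length.

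Whole reads were recovered for 100% of values (within 0.01 read), 1214295 to 1973957 per library, and 0 columns lacked a sample. Pairs of libraries of a genotype differed by more than sampling noise (in 16 pairs the lowest chi-square, divided by its degrees of freedom, was 5.45). The study describes 5 RragcS74N/+ animals, and 4 libraries were analysed here. Genes that averaged 10 or more were tested on log2(value + 1), which understates folds of low genes, in limma (version 3.58.1) under R (version 4.3.3), with trended moderation, genotype as the one term and Benjamini-Hochberg adjustment over 6673 genes, and single values with exact permutation tests. edgeR (version 4.0.16) and DESeq2 (version 1.42.0) on recovered reads were alternatives, with the pseudocount, filter, scaling, moderation, array weights and removal of each library. The procedure was tested on simulated counts. Removal of the GC trend, with GENCODE transcripts of assembly GRCm38 matched by symbol for 6556 of 6673 genes, was added after the data were seen.

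The members, lists and tests were chosen with earlier results of these data known. All members are named, and from each list the genes with an unadjusted limma p-value under 0.05 and the gene with the highest mean. No gene of the list of other CDK inhibitors (Cdkn1c, Cdkn2a, Cdkn2b) was analysed here.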

Additional observations from a re-analysis of the deposited data

Results flagged for a closer look

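For each of 48 sets of values, made of the members and the other named genes in each genotype, single libraries that stood far off within their genotype were looked for, and 1 was found, against 2.4 by chance. Ccnd2 was high in Rragc+/+ replicate 2, at 130 normalized counts, with a gap to the next library of 0.783 of the range of its genotype. That library was the lowest for 6 of the 7 members, so the high value of Ccnd2 had the other direction. Without it the log2 difference of Ccnd2 between genotypes was -0.52, against -0.72 with all libraries.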

How the results depend on the processing

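The labels give no pairing of libraries between genotypes, so no paired analysis was made. Under the 20 alternatives the count of members past the adjusted threshold was 0 each time. For single members, 138 values had the same sign and call as reported. The exception was Cdkn1b, at 0.14, which reversed to -0.034 with the 3′ GC trend removed. The count of members with an unadjusted p-value under 0.05, 0 as reported, ran from 0 to 2 when 1 replicate at a time was left out, with 2 (Ccng2 and Gadd45a) without Rragc+/+ replicate 1 and 1 (Ccng2) without Rragc+/+ replicate 5. The same count over all genes, 388 as reported, was 191 under the filter at 50, which tests fewer genes and leaves out Rb1, 769 with array quality weights, and 201 to 907 with 1 replicate left out at a time (lowest without Rragc+/+ replicate 2, highest without Rragc+/+ replicate 5). It was 460 with edgeR, 447 with DESeq2 and 257 with the GC trend removed. The members' median ranged from 0.15 without Rragc+/+ replicate 2 to 0.38 without Rragc+/+ replicate 5.

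Among the other named genes 318 values had the reported sign and call and 18 reversed, all 18 in genes whose adjusted p-value stayed far above the threshold. With the GC trend removed Ccnd3 became 0.10, Gadd45g 0.10 and Cul1 -0.045. Cul1 was also -0.0083 with rescaling to the same total, -0.0071 with TMM factors, -0.012 with array quality weights and -0.011 with edgeR, and Klf2 was -0.0096 with array quality weights. With 1 replicate left out at a time the ranges were -0.14 to 0.0012 for Btg2, -0.081 to 0.058 for Cul1, -0.12 to 0.31 for H2az1, -0.060 to 0.18 for Il1b and -0.028 to 0.078 for Klf2. The causes were not tested. H2az1 had no matched transcript end in the GC fit. Among the members, Ccng2 and Rb1 rested on the fewest reads in a library, 16 and 17.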
